A study of Mus musculus with 18 samples.

Results

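The NF-kappaB family was followed through lung macrophages of WT and Ezr-KOm mice as 10 transcripts. They were found by gene symbol among the 21254 genes of the deposited count table. The 5 subunit genes are Rela, Rel, Relb, Nfkb1 and Nfkb2. The 4 IkappaB genes are Nfkbia, Nfkbib, Nfkbie and Nfkbiz, and the last member is Tnfaip3. All 10 passed the expression filter and were among the 15811 genes tested. The least covered value was that of Relb in WT moM replicate 1, with 1881 counts.

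NF-kappaB is a dimer of Rel proteins that is held in the cytoplasm by IkappaB proteins and enters the nucleus once an IkappaB is phosphorylated and degraded. In the canonical route, LPS and cytokines free dimers of p65, the product of Rela, or of c-Rel with p50, which is cut from the product of Nfkb1. In the noncanonical route, the kinase NIK (Map3k14) promotes the cutting of p100, the product of Nfkb2, to p52, the partner of RelB. IkappaBalpha, IkappaBbeta and IkappaBepsilon, from Nfkbia, Nfkbib and Nfkbie, are cytoplasmic inhibitors, while IkappaBzeta, from Nfkbiz, acts on nuclear dimers at a subset of target genes. A20, from Tnfaip3, is a ubiquitin-editing enzyme that dampens the signal, and Nfkbia and Tnfaip3 are themselves targets of the pathway. RelB is also known for its part in the differentiation of dendritic cells.

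The libraries came from 3 populations sorted from perfused lungs 24 h after nebulization of Pseudomonas aeruginosa LPS, 12.5 mg in 5 ml over 15 min. All groups received LPS, so no comparison with an untreated lung could be made. All sorted cells were CD45+ CD11b+, with moMs (monocyte-derived macrophages) taken as MHC-II- Ly6C+, transitional interstitial macrophages (tnsIMs, labelled trIM) as MHC-II+ Ly6C+ and mature interstitial macrophages (matIMs) as MHC-II+ Ly6C-. Mice were 3 to 5 months old and on a C57BL/6 background. Ezr-KOm mice carry floxed Ezr alleles and a Cre driven by Cx3cr1, and the WT mice carry the same Cre with intact Ezr, so the Cre insertion was shared by all 6 groups. Cx3cr1 is also active in some dendritic cells, NK cells and eosinophils. Each group of population and genotype had 3 libraries, 18 in all, with 16512783 to 48460995 counts per library. Ezr, which codes for the membrane linker ezrin, was read at 497 to 741 CPM (counts scaled to the size of the library) in WT libraries and at 93.8 to 282 CPM in Ezr-KOm libraries. No Ezr-KOm library reached a WT library of its population, and reads of Ezr remained in all of them. The log2 fold change of Ezr was -1.20 in moMs (edgeR adjusted p = 0.0549), -1.62 in tnsIMs (adjusted p = 0.00365) and -2.29 in matIMs (adjusted p = 7.73e-05).

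The sorted populations differed in the markers of other cell types. The sum of 8 markers of mature migratory dendritic cells was 56.3 to 70.1 CPM in WT moMs, 351 to 428 CPM in WT tnsIMs and 5070 to 6779 CPM in WT matIMs. In Ezr-KOm mice the same sums were 68.9 to 81.6, 427 to 613 and 6127 to 7219 CPM. None of the 8 was at 0 in all libraries of a group, and Ccr7, Fscn1 and Ccl22 carried most of the matIM sum, while Il4i1 stayed under 1 CPM in every WT library. The sum of 6 conventional dendritic cell markers was 96.8 to 152 CPM in WT moMs, 68.5 to 271 CPM in WT tnsIMs and 793 to 1638 CPM in WT matIMs. Cd209a carried most of that WT matIM sum, with a mean of 786 CPM. Xcr1 had a lower mean in WT matIMs than in WT moMs (3.76 against 6.26 CPM), and the remaining markers of the list had higher means. The sum of 10 macrophage markers was 5160.5 to 5803 CPM in WT moMs, 5303 to 6225 CPM in WT tnsIMs and 4180.3 to 4757 CPM in WT matIMs, so the label as macrophages had its markers in each population. The 7 epithelial markers summed to 2459.8 to 4107 CPM in WT tnsIMs against 42.8 to 94.8 CPM in WT moMs and 281 to 383 CPM in WT matIMs. In bulk libraries, a change in the share of a cell type and a change in RNA per cell cannot be told apart.

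Relb and Nfkb1 were the subunits called between matIMs and the other populations in both genotypes. The 250 bases before an annotated start of each are given here, because of these stretches only that of Relb held a kappaB motif. Sequences were read 5′ to 3′ on the coding strand from GRCm39, upstream of the start of the Ensembl canonical transcript in Gencode M39. Relb lies on the minus strand with the sequence at chr7:19363424-19363673, and Nfkb1 on the minus strand with the sequence at chr3:135397743-135397992. The starts of Relb and Nfkb1 in that annotation lie upstream of the genes' limits in the deposited table. Capitals mark a match to the kappaB consensus.
Relb: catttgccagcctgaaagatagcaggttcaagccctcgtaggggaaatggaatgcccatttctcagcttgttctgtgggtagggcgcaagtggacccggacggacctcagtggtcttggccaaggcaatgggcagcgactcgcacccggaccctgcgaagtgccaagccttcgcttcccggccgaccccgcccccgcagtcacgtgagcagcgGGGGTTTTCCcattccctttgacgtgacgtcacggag
Nfkb1: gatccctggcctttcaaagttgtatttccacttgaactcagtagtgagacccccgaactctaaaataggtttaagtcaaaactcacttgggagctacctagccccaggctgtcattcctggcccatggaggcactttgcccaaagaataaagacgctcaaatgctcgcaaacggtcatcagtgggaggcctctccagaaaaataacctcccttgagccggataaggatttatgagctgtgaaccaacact

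The kappaB consensus, the 10-base recognition element of NF-kappaB dimers, was read as GGG, a purine, 2 free bases, 2 pyrimidines and CC on either strand. It was searched from 250 bases before to 50 bases after the start. Of 14802 promoters of protein-coding genes of the deposited table searched this way, 1503 (10.2%) held a match, and among the members 4 of 10 did. Relb held GGGGTTTTCC at -37 to -28 and GGGGAATTCC at 37 to 46 from the start. Nfkbia held GGAAATTCCC at -29 to -20 and Nfkbie held GGGGGATTCC at -86 to -77. Tnfaip3 held GGGACACCCC at -97 to -88 and GGAAATCCCC at 17 to 26. No match to these letters lay in this window of Nfkb1, Nfkb2, Rel, Rela, Nfkbib or Nfkbiz. The result depends on the start used. The window of Nfkb1 (chr3:135397693-135397992) lay wholly beyond the gene's deposited end at 135397308. That of Nfkbiz (chr16:55642870-55643169) lay inside the deposited gene, which is on the minus strand and ends at 55659262. Windows at other starts were not searched.

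Levels per length placed Nfkbia, Tnfaip3 and Nfkbiz above all subunits. Over all 18 libraries, Nfkbia had a mean of 2262 CPM per kb of exon, followed by Tnfaip3 at 255 and Nfkbiz at 247 CPM per kb. Nfkbib at 91.1, Rela at 89.6 and Nfkbie at 66.8 CPM per kb came next, and then Rel at 46.3, Nfkb2 at 43.6, Relb at 35.5 and Nfkb1 at 22.5 CPM per kb. The length was that of the merged exons of all transcripts of a gene in Gencode M39, from 1.937 kb for Nfkbia to 12.848 kb for Nfkb1. It can exceed the length of a single mRNA, so this order depends on the annotation. Group means of neighbours in this order crossed for Tnfaip3 and Nfkbiz, for Nfkbib and Rela and among Rel, Nfkb2 and Relb, so these neighbours were not separated beyond their spread. Nfkbia stood apart in every group, with group means from 2066 to 2537 CPM per kb.

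**Figure D1:**
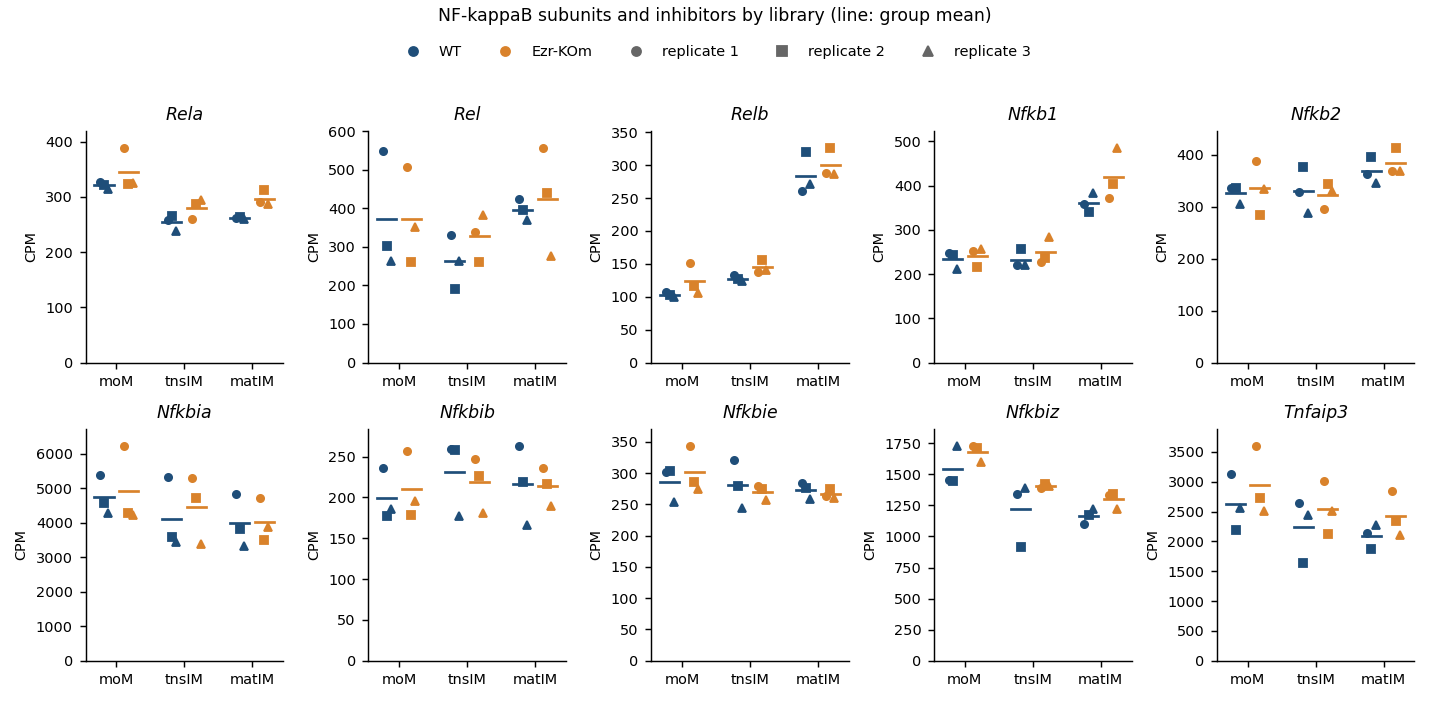
CPM (vertical axis, from 0) of each of the 10 genes in moMs, tnsIMs and matIMs of WT (blue) and Ezr-KOm (orange) mice. Each point is 1 library, its shape gives the replicate number and the line is the group mean of 3 libraries. Relb and Nfkb1 sit higher in all 6 matIM libraries than in any other library, while the 2 genotypes lie close together in each population.

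Relb showed the largest change among the members between populations. Its level was 107, 102 and 99.4 CPM in the 3 WT moM libraries, 132, 127 and 124 CPM in WT tnsIMs, and 260.0, 319 and 271 CPM in WT matIMs. In Ezr-KOm mice it was 151, 116 and 105 CPM in moMs, 138, 157 and 140.0 CPM in tnsIMs, and 288, 326 and 287 CPM in matIMs. All 6 matIM libraries lay above all 12 libraries of the other populations. In WT mice Relb was 2.76-fold higher in matIMs than in moMs, a log2 fold change of 1.46 ± 0.138 (SE; edgeR quasi-likelihood, adjusted p = 2.67e-07). In Ezr-KOm mice the fold was 2.42, a log2 fold change of 1.28 ± 0.137 (adjusted p = 1.33e-06 by edgeR). Against tnsIMs, Relb in matIMs was 2.22-fold higher in WT (log2 1.15 ± 0.137, edgeR adjusted p = 6.75e-06) and 2.07-fold higher in Ezr-KOm mice (log2 1.05 ± 0.137, edgeR adjusted p = 1.87e-05). The step from moMs to tnsIMs was smaller. The WT groups did not overlap there, with a log2 fold change of 0.31 (95% interval 0.03 to 0.60), but the adjusted p of edgeR was 0.113. The Ezr-KOm groups did overlap, with a log2 fold change of 0.23 (95% interval -0.06 to 0.51) and an edgeR adjusted p of 0.312. Without Ezr-KOm moM replicate 1, the highest of its group, the Relb value was 0.43 with an adjusted p of 0.0435, over a range of 0.0435 to 0.693 in all alternatives.

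Nfkb1 rose in the same population by a smaller factor. It was read at 248, 242 and 211 CPM in WT moMs, 219.6, 256 and 219 CPM in WT tnsIMs, and 359, 341 and 384 CPM in WT matIMs. The Ezr-KOm libraries gave 252, 216 and 256 CPM in moMs, 227, 237 and 284 CPM in tnsIMs, and 372, 404 and 485 CPM in matIMs. As with Relb, no matIM library overlapped another population. The WT matIMs were 1.54-fold above moMs (log2 0.63 ± 0.136, edgeR adjusted p = 0.00195) and 1.56-fold above tnsIMs (log2 0.64 ± 0.136, edgeR adjusted p = 0.00218). In Ezr-KOm mice the folds were 1.74 (log2 0.80 ± 0.136, edgeR adjusted p = 0.000241) and 1.69 (log2 0.75 ± 0.136, edgeR adjusted p = 0.000536). Between tnsIMs and moMs, the log2 fold change of Nfkb1 was -0.01 in WT (95% interval -0.30 to 0.27) and 0.05 in Ezr-KOm mice (95% interval -0.24 to 0.33).

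The dendritic cell markers moved with these genes. The labels' sort gates hold no CD11c, CD24 or CD64, while the flow cytometry section of the study's methods places dendritic cells in the CD11c+ fraction, as CD24 high and CD64 negative, and takes the macrophage populations from CD11c- cells. That section also writes matIMs as Ly6C+ MHC-II-, unlike the labels, and the labels do not state whether its gates were those of the sorted libraries. Libraries with more Relb and Nfkb1 were the matIM libraries, in which the 8 mature migratory dendritic cell markers summed to at least 5070 CPM, against at most 613 CPM in any other library. WT tnsIMs had more of these markers than WT moMs (351 CPM or more against 70.1 CPM or less). Nfkb1 overlapped between these groups. Relb did not, at 124 to 132 CPM in WT tnsIMs against 99.4 to 107 CPM in WT moMs (edgeR adjusted p = 0.113). The part of these markers in the rise of Relb and Nfkb1 was not tested.

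**Figure D2:**
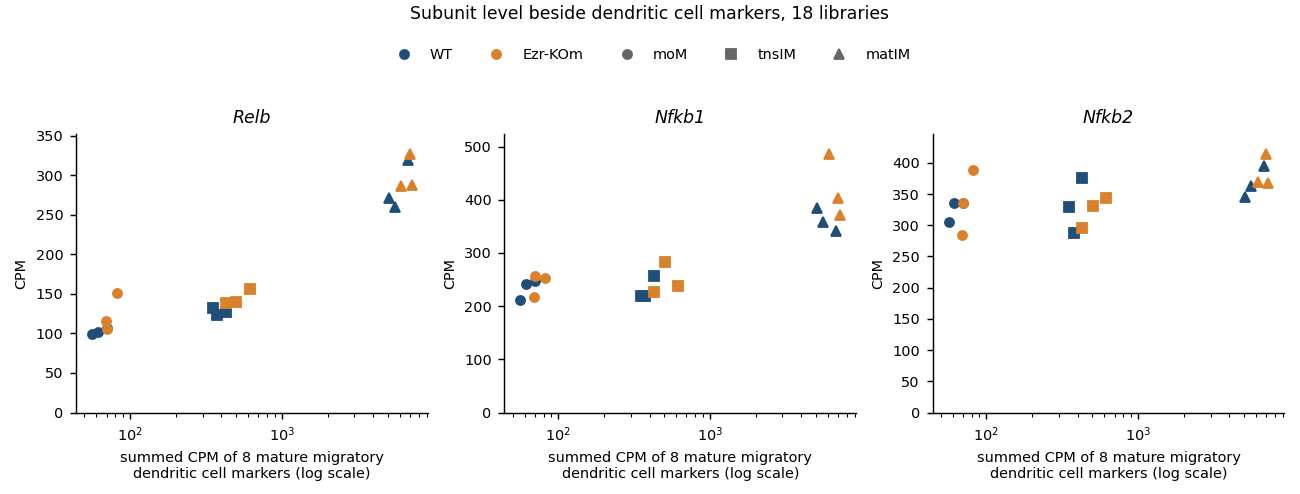
Level of Relb, Nfkb1 and Nfkb2 (CPM, vertical axis from 0) against the summed CPM of 8 mature migratory dendritic cell markers (horizontal log axis) in 18 libraries, with colour for genotype and shape for population. The 6 matIM libraries stand apart on the marker axis at 5070 CPM or more and hold the highest Relb and Nfkb1 values, while Nfkb2 of matIMs overlaps that of the other populations.

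Nfkb2, the precursor of the partner of RelB, did not pass the test in any comparison of populations. Its values were 336.3, 335.6 and 306 CPM in WT moMs, 329, 376 and 288 CPM in WT tnsIMs, and 363, 395 and 346 CPM in WT matIMs. The WT matIM libraries lay just above the moM libraries, with a log2 fold change of 0.17 (95% interval -0.11 to 0.46, edgeR adjusted p = 0.393). In Ezr-KOm mice Nfkb2 was 388, 284 and 335 CPM in moMs, 296, 343 and 331 CPM in tnsIMs, and 368, 413 and 369 CPM in matIMs, and the log2 fold change from moMs to matIMs was 0.19 (95% interval -0.09 to 0.48, edgeR adjusted p = 0.357). Against tnsIMs the values were 0.15 in WT and 0.25 in Ezr-KOm mice, with edgeR adjusted p of 0.535 and 0.256. Exons of Psd on the other strand overlap those of Nfkb2. The strand setting of the counts was not stated, so this value may depend on how reads there were assigned.

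Rela, which codes for the p65 subunit of the canonical dimer, had its highest values in moMs. It was 327, 321 and 315 CPM in WT moMs, 257, 265 and 239 CPM in WT tnsIMs, and 261.3, 263 and 260.7 CPM in WT matIMs. In Ezr-KOm mice it was 389, 323 and 325 CPM in moMs, 261, 286 and 295 CPM in tnsIMs, and 290.3, 312 and 287 CPM in matIMs. In each genotype the moM libraries lay above those of both other populations. The WT difference of tnsIMs from moMs was a log2 fold change of -0.34 ± 0.111 and passed the test (edgeR adjusted p = 0.0359). That call was narrow. It was lost under 15 of 26 alternatives, with adjusted p from 0.00821 to 0.1495 and log2 fold changes from -0.36 to -0.24 over all of them. Among single libraries, the call was lost on leaving out each WT moM library (adjusted p 0.0884, 0.0974 and 0.0831 without replicates 1, 2 and 3), each WT tnsIM library (0.0633, 0.0660 and 0.122), Ezr-KOm moM replicate 1 (0.0510), WT matIM replicates 2 and 3 (0.0542 and 0.0577) and Ezr-KOm matIM replicate 1 (0.0538), all for Rela by edgeR. The matching difference in Ezr-KOm mice was -0.30 (edgeR adjusted p = 0.0816). Beside this call, WT tnsIMs differed from WT moMs in the sums of 7 epithelial markers (2459.8 to 4107 against 42.8 to 94.8 CPM), 5 endothelial markers (236 to 415 against 77.8 to 106 CPM) and 5 fibroblast markers (47.6 to 59.7 against 12.7 to 17.6 CPM). None of these lists had a marker at 0 in all libraries of either group, and their part in the Rela difference was not tested. For matIMs against moMs, Rela had log2 fold changes of -0.30 in WT (edgeR adjusted p = 0.0611) and -0.22 in Ezr-KOm mice (edgeR adjusted p = 0.173). The WT value for Rela passed the test under 8 of 26 alternatives, among them the removal of Ezr-KOm moM replicate 2 (adjusted p 0.0455), of WT tnsIM replicate 1 (0.0497) or 3 (0.0382) and of Ezr-KOm tnsIM replicate 1 (0.0483) or 3 (0.0456).

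Rel, which codes for c-Rel, had the widest spread between replicates of the 10 members. It was read at 548, 302 and 264 CPM in WT moMs, 331, 192 and 264 CPM in WT tnsIMs, and 424, 396 and 370.0 CPM in WT matIMs. Ezr-KOm mice gave 507, 259.9 and 351 CPM in moMs, 339.5, 259.7 and 382 CPM in tnsIMs, and 557, 441 and 276 CPM in matIMs. Only WT matIMs and WT tnsIMs were separate, with a log2 fold change of 0.60 (95% interval -0.02 to 1.22, edgeR adjusted p = 0.198). With the replicate number as a block, the Rel value was 0.64 and passed the test (edgeR adjusted p = 0.0377, or 0.0438 with a block within genotype). The matIM to moM value was 0.10 in WT (95% interval -0.52 to 0.71) and 0.19 in Ezr-KOm mice (95% interval -0.43 to 0.81), and the tnsIM to moM value was -0.50 and -0.19. The intervals of Rel were wide in both directions.

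The cytoplasmic inhibitors did not pass the test between any pair of populations. Nfkbia was read at 5382, 4590.4 and 4283 CPM in WT moMs, 5334, 3581 and 3447 CPM in WT tnsIMs, and 4849, 3814 and 3342 CPM in WT matIMs. The Ezr-KOm values were 6228, 4286 and 4227 CPM in moMs, 5290.5, 4729.7 and 3379 CPM in tnsIMs, and 4725, 3499.7 and 3887 CPM in matIMs. The populations overlapped throughout, and the matIM to moM log2 fold change was -0.25 in WT (95% interval -0.70 to 0.20) and -0.28 in Ezr-KOm mice (95% interval -0.73 to 0.17). Nfkbib ranged from 166 to 263 CPM and Nfkbie from 245 to 343 CPM over the 18 libraries. The matIM to moM log2 fold change of Nfkbib was 0.11 in WT and 0.03 in Ezr-KOm mice, and that of Nfkbie was -0.07 and -0.18, with edgeR adjusted p from 0.381 to 0.951. Exons of Sirt2 and Ccer2 on the other strand overlap those of Nfkbib, so its counts may depend on how reads there were assigned. Exons of noncoding genes on the other strand also overlap those of Nfkb1, Rela, Nfkbia and Tnfaip3.

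The replicate number went with the level of the cytoplasmic inhibitors and of Rel and Tnfaip3. Nfkbia and Nfkbib were highest in replicate 1 in 6 of 6 groups, and Rel and Tnfaip3 in 5 of 6. Nfkbie was lowest in replicate 3 in 6 of 6 groups. Nfkbiz was highest in replicates 1, 2 and 3 in 1, 2 and 3 of 6 groups. How many of all genes kept 1 order over the groups was not counted. The highest library of a group was 1.26 to 1.57 times the lowest for Nfkbia and 1.15 to 2.08 times for Rel, against 1.01 to 1.205 times for Rela. What the shared number stands for is not stated in the labels.

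Nfkbiz and Tnfaip3, the feedback members, had their highest group means in moMs. Nfkbiz was 1455, 1447 and 1727 CPM in WT moMs, 1342, 918 and 1392 CPM in WT tnsIMs, and 1100.1, 1175 and 1221 CPM in WT matIMs. Among Ezr-KOm libraries the values were 1724, 1715 and 1597 CPM in moMs, 1389, 1425 and 1409 CPM in tnsIMs, and 1336, 1342 and 1218 CPM in matIMs. In both genotypes every moM library was above every tnsIM and matIM library. In WT matIMs Nfkbiz fell to 0.755 of moMs, a log2 fold change of -0.41 ± 0.142 (edgeR adjusted p = 0.0441), and in Ezr-KOm mice the value was -0.37 ± 0.142 (edgeR adjusted p = 0.0690). The WT call for Nfkbiz was lost under 11 of 26 alternatives, with adjusted p from 0.00923 to 0.164. They included leaving out WT moM replicate 3 (adjusted p 0.147), WT matIM replicate 1, 2 or 3 (0.103, 0.0800 and 0.0646), Ezr-KOm moM replicate 1 (0.0510) and Ezr-KOm matIM replicate 2 (0.0577). The Ezr-KOm value for Nfkbiz passed the test under 5 of 26 alternatives, over a range of adjusted p from 0.0196 to 0.291. These were DESeq2 (0.0424), a replicate block (0.0443), a replicate block within genotype (0.0251), the Ezr-KOm libraries alone (0.0423) and the fit without WT tnsIM replicate 2 (0.0196). Between tnsIMs and moMs, the log2 fold change of Nfkbiz was -0.34 in WT (edgeR adjusted p = 0.0953) and -0.25 in Ezr-KOm mice (edgeR adjusted p = 0.273).

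Tnfaip3 was read at 3129.6, 2193 and 2566 CPM in WT moMs, 2636, 1638 and 2439.9 CPM in WT tnsIMs, and 2139, 1864 and 2282 CPM in WT matIMs. Ezr-KOm mice gave 3596, 2734 and 2515 CPM in moMs, 3009, 2119 and 2505 CPM in tnsIMs, and 2850.0, 2341 and 2103 CPM in matIMs. The populations overlapped in both genotypes. The matIM to moM log2 fold change of Tnfaip3 was -0.33 in WT (95% interval -0.75 to 0.09, edgeR adjusted p = 0.263) and -0.28 in Ezr-KOm mice (95% interval -0.70 to 0.14, edgeR adjusted p = 0.369).

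**Figure D3:**
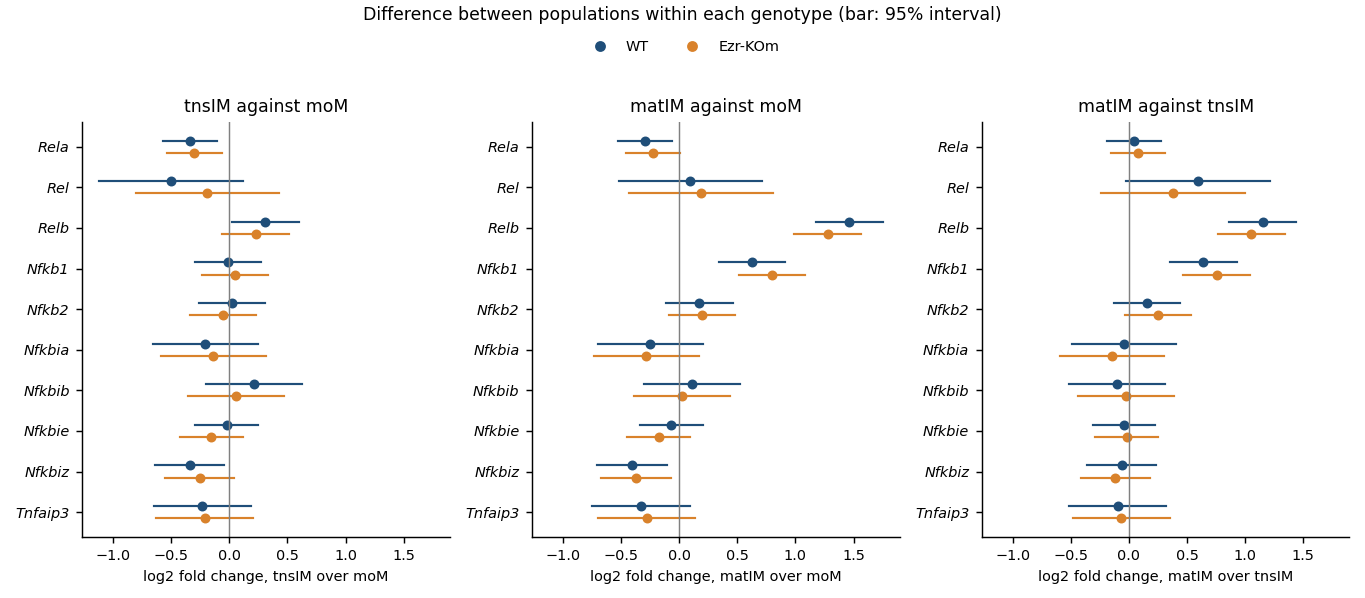
Log2 fold change (horizontal axis) of each gene between pairs of populations in WT (blue) and Ezr-KOm (orange) mice, with bars for the 95% interval of the edgeR fit to 18 libraries. Relb at 1.46 and 1.28 and Nfkb1 at 0.63 and 0.80 stand to the right of 0 for matIMs against moMs, and the intervals of WT and Ezr-KOm mice overlap for every gene.

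Counted over the family at an adjusted p under 0.05 in edgeR, 3 of 10 members passed for WT matIMs against moMs, with Relb and Nfkb1 higher and Nfkbiz lower, where 24.8% of all genes tested passed. In Ezr-KOm mice 2 of 10 passed, Relb and Nfkb1, where 23.3% of all genes did, and DESeq2 and the replicate block each called 3, with Nfkbiz added. For matIMs against tnsIMs, 2 of 10 passed in each genotype, again Relb and Nfkb1, against 18.5% of all genes in WT and 18.2% in Ezr-KOm mice. For tnsIMs against moMs, 1 of 10 passed in WT, Rela with a lower level, against 21.6% of all genes. In Ezr-KOm mice 0 of 10 passed, against 14.3% of all genes. At an unadjusted p under 0.05 in edgeR there was 1 member, against 4233 of the 15811 genes tested, and DESeq2 called 1, Rela in each case. The share of the family called was therefore close to or below that of all genes. The family's median log2 fold change for matIMs against moMs was 0.01 in WT and -0.07 in Ezr-KOm mice, and that of all genes was 0.01 and 0.01. Comparisons that use the same moM or tnsIM libraries are not independent of each other.

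A ratio of counts of subunit genes within a library does not depend on how libraries are scaled. It still carries the mix of cell types in that library, whose part was not tested. The ratio of Relb to Rela counts was 0.327, 0.318 and 0.316 in WT moMs, 0.514, 0.478 and 0.518 in WT tnsIMs, and 0.995, 1.21 and 1.04 in WT matIMs. The Ezr-KOm values were 0.388, 0.359 and 0.323 in moMs, 0.529, 0.547 and 0.475 in tnsIMs, and 0.993, 1.05 and 1.00 in matIMs. The 3 populations did not overlap, and the order was moM, tnsIM, matIM in both genotypes. The ratio was 1.51-fold higher in tnsIMs than in moMs, 3.10-fold higher in matIMs than in moMs and 2.05-fold higher in matIMs than in tnsIMs. Each of these had an exact two-sided permutation p of 0.005, the smallest that the 400 arrangements within genotype allow, and 0.012 after adjustment over the 12 ratio tests.

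The ratio of Nfkb2 to Nfkb1 counts moved the other way. It was 1.36, 1.39 and 1.45 in WT moMs, 1.499, 1.47 and 1.31 in WT tnsIMs, and 1.01, 1.16 and 0.900 in WT matIMs. Among Ezr-KOm libraries the values were 1.54, 1.312 and 1.310 in moMs, 1.30, 1.45 and 1.17 in tnsIMs, and 0.991, 1.02 and 0.761 in matIMs. Within each genotype all matIM libraries lay below those of the other populations. The ratio in matIMs was 0.696 of that in moMs and 0.710 of that in tnsIMs (exact permutation p = 0.005 for each, 0.012 adjusted). Between tnsIMs and moMs it was 0.979 (exact permutation p = 0.64). The ratio of Rel to Rela was 1.35-fold higher in matIMs than in moMs and 1.34-fold higher than in tnsIMs, with exact permutation p of 0.09 and 0.07 and adjusted values of 0.154 and 0.14. These are ratios of counts and not of molecules, since the transcripts differ in length. Subunit proteins and dimers were not measured in these libraries.

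**Figure D4:**
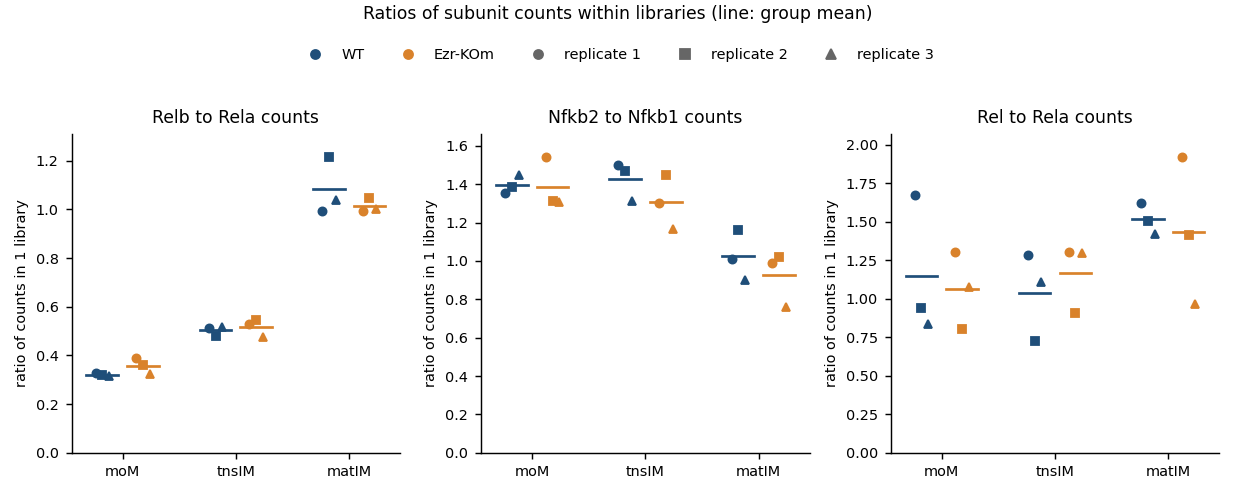
Ratio of counts of 2 genes within 1 library (vertical axis, from 0) for Relb to Rela, Nfkb2 to Nfkb1 and Rel to Rela, by population, with colour for genotype, shape for replicate number and a line at the group mean. Relb to Rela rises from a WT mean of 0.320 in moMs to 0.503 in tnsIMs and 1.083 in matIMs, while the genotypes lie together.

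The comparison of Ezr-KOm with WT asked whether ezrin in Cx3cr1-expressing cells set the level of these genes after LPS. No member passed the test in any population. The study's own rule asks for a log2 fold change beyond 0.75 in either direction together with a p under 0.05 before adjustment. In moMs 0 of 10 members had an adjusted p under 0.05 in edgeR, against 0.171% of all genes, and 0 of 10 met the study's rule, against 2.51%. In tnsIMs the counts were 0 and 0 of 10, against 0.164% and 1.83% of all genes. In matIMs they were 0 and 0 of 10, against 0.152% and 2.40%. No member had an unadjusted p under 0.05 in any of the 3 populations in this fit, and DESeq2 called 0 in each. Of the 15811 genes tested, 592 in moMs, 512 in tnsIMs and 607 in matIMs had an unadjusted p under 0.05 in edgeR. With the replicate block that pairs WT with Ezr-KOm libraries, the count of members at an unadjusted p under 0.05 was 1 for moMs and 0 for each of the other populations, and 0 passed after adjustment. With so few genes called in all, counts of 0 are close to the background. Log2 fold changes of the members ran from 0.01 to 0.27 in moMs, from -0.08 to 0.32 in tnsIMs and from -0.03 to 0.22 in matIMs.

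Averaged over the 3 populations, 0 of 10 members passed at an adjusted p under 0.05, against 0.854% of all genes, and DESeq2 called 0. At an unadjusted p under 0.05 in edgeR there were 2 of 10 members, against 1275 of the 15811 genes tested. With the replicate block, 4 of 10 had an unadjusted p under 0.05 and 0 passed after adjustment, with a smallest adjusted p of 0.317. The matching count over all genes was not taken for the block. Relb had a mean log2 difference of 0.18 (95% interval 0.01 to 0.34, edgeR unadjusted p = 0.0344, adjusted p = 0.556), with 0.27 in moMs, 0.18 in tnsIMs and 0.08 in matIMs. All 3 Ezr-KOm tnsIM libraries were above the WT tnsIM libraries for Relb, and the other populations overlapped. Rela had a mean difference of 0.14 (95% interval 0.01 to 0.28, edgeR unadjusted p = 0.0380, adjusted p = 0.574), with 0.11, 0.15 and 0.18 in moMs, tnsIMs and matIMs. For Rela all 3 Ezr-KOm matIM libraries were above the WT matIM libraries. Tnfaip3 at 0.19 (95% interval -0.05 to 0.43) and Nfkbiz at 0.16 (95% interval -0.01 to 0.33) had differences of like size, and those of Nfkb2, Nfkbib and Nfkbie were 0.02, -0.01 and -0.01. The upper bounds of these mean differences lay between 0.15 for Nfkbie and 0.50 for Rel. The median of the members was 0.13, against 0.00 for all genes tested. The members are not independent of each other, and the difference of these medians was not tested.

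**Figure D5:**
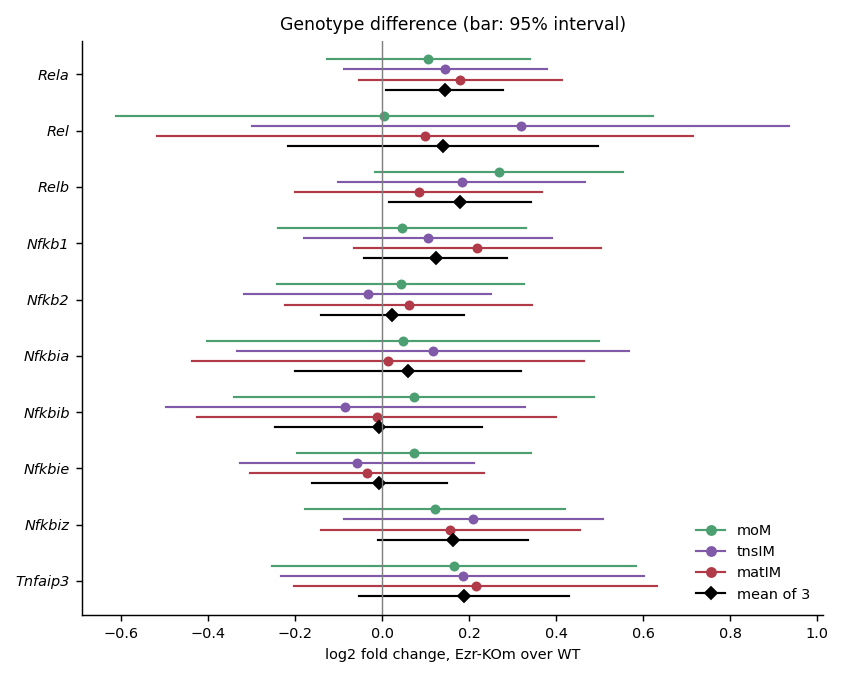
Log2 fold change of Ezr-KOm over WT (horizontal axis) for each gene in moMs, tnsIMs and matIMs and for the mean of the 3 populations (black diamonds), with bars for the 95% interval. Single-population values lie between -0.08 and 0.32 and every single-population interval spans 0, while the mean intervals of Relb and Rela end just above 0 on their lower side.

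The genotype difference was also compared between populations. The interaction was called for 0 of 10 members and 0% of all genes for tnsIMs against moMs, for 0 of 10 and 0% for matIMs against moMs, and for 0 of 10 and 0% for matIMs against tnsIMs. DESeq2 called 0 members in each, no member had an unadjusted p under 0.05, and 233, 268 and 183 of all genes did. The largest interaction among members was that of Rel for tnsIMs against moMs, a log2 value of 0.31 (95% interval -0.56 to 1.19). The interaction of Relb for matIMs against moMs was -0.18 (95% interval -0.59 to 0.22). With 3 libraries a group, the genotype intervals were narrower for Relb, -0.20 to 0.37 in matIMs, than for Rel, -0.52 to 0.72 in matIMs.

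The kinases and adaptors upstream of NF-kappaB moved in both directions between populations. For WT matIMs against moMs, 3 of 18 passed with a higher and 4 with a lower level, against 24.8% of all genes called in either direction, with a list median of -0.19 against 0.01 for all genes. Birc2, which codes for the ubiquitin ligase cIAP1, rose from 38.8 ± 4.32 to 113 ± 16.4 CPM (SD, n = 3; log2 1.54, edgeR adjusted p = 3.72e-05). Map3k14, coding for the noncanonical kinase NIK, rose from 68.4 ± 8.20 to 126 ± 13.9 CPM (SD, n = 3; log2 0.88, edgeR adjusted p = 0.00107). Traf2, whose product joins cIAP proteins in holding NIK low, rose by 0.74 on the log2 scale. Ikbke, an IkappaB kinase-related kinase, fell from 211 ± 17.6 to 96.3 ± 8.48 CPM (SD, n = 3; log2 -1.13, edgeR adjusted p = 6.05e-05). Ripk1, a kinase that links TNF receptors to the pathway, and Ikbkb, which codes for the canonical kinase IKKbeta, had log2 fold changes of -0.62 and -0.47. Against tnsIMs, where 18.5% of all genes were called, Birc2 at 1.75 and Map3k14 at 1.32 were higher in WT matIMs and Ikbke at -1.56 was lower. For WT tnsIMs against moMs 1 of 18 was higher, Traf2 at 0.43, and 5 were lower, against 21.6% of all genes, with Ikbkb at -0.84, Tab2 at -0.74 and Ripk1 at -0.66 the 3 of smallest p. In Ezr-KOm mice 3 of 18 were higher and 3 lower for matIMs against moMs, against 23.3% of all genes.

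Other inhibitors and feedback regulators numbered 16. For WT matIMs against moMs 3 passed with a higher and 4 with a lower level, against 24.8% of all genes called, with a list median of -0.10. Tnip3 and Tnip2, which code for partners of A20, had log2 fold changes of 1.18 and 0.65, and Nfkbid, which codes for a nuclear IkappaB, had 0.44. Bcl3, another nuclear IkappaB gene, had -0.65, and Itch and Tax1bp1, whose products act with A20, had -0.60 and -0.48. For WT tnsIMs against moMs 2 were higher, Tnip1 at 0.60 and Pdlim2 at 0.67, and 2 were lower, Bcl3 at -0.86 and Itch at -0.92, against 21.6% of all genes. For WT matIMs against tnsIMs 3 were higher, Tnip3 at 0.92, Cyld at 0.75 and Tnip2 at 0.65, and 3 were lower, Tnip1 at -0.80, Pdlim2 at -0.53 and N4bp1 at -0.52, against 18.5% of all genes. In Ezr-KOm mice 3 of 16 were higher and 4 lower for matIMs against moMs, against 23.3% of all genes.

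The known target genes numbered 25. For WT matIMs against moMs 6 passed with a higher and 6 with a lower level, against 24.8% of all genes called, with a list median of -0.26. The T cell chemokine gene Ccl5 rose from 52.9 ± 25.7 to 545 ± 168 CPM (SD, n = 3; log2 3.37, edgeR adjusted p = 1.58e-05). Il12b, which codes for the p40 chain of IL-12 and IL-23, rose from 37.1 ± 22.6 to 307 ± 50.3 CPM (SD, n = 3; log2 3.05, edgeR adjusted p = 0.000315), and the adaptor gene Traf1 rose by 1.22 on the log2 scale. Il6 fell from 469 ± 94.6 to 162 ± 31.0 CPM (SD, n = 3; log2 -1.54, edgeR adjusted p = 3.46e-05). The monocyte chemokine gene Ccl2 had a log2 fold change of -1.39 and Birc3, which codes for cIAP2, had -0.70. For WT tnsIMs against moMs 5 were higher, led by Bcl2l1 at 0.87, Il12b at 1.78 and Ccl3 at 0.72, and 2 were lower, Birc3 at -0.99 and Il6 at -1.07, against 21.6% of all genes. For WT matIMs against tnsIMs 4 were higher, with Ccl5 at 2.06, Traf1 at 0.82 and Cd83 at 0.73 of smallest p, and 6 were lower, with Ccl2 at -1.41, Ier3 at -1.003 and Sod2 at -0.79 of smallest p, against 18.5% of all genes. In Ezr-KOm mice 6 of 25 were higher and 8 lower for matIMs against moMs, against 23.3% of all genes. Ccl5, Il12b, Traf1 and Cd83 are also expressed by mature dendritic cells, whose markers rose in matIMs as given above.

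Between genotypes, 0 genes of the 3 pathway lists passed at an adjusted p under 0.05 by edgeR or met the study's rule in any population. Of all genes in moMs, tnsIMs and matIMs, 0.171%, 0.164% and 0.152% passed, and 2.51%, 1.83% and 2.40% met the rule. At an unadjusted p under 0.05, the lists held 0 genes in moMs, 1 target gene in tnsIMs (Il6) and 1 feedback regulator in matIMs (Tnip3), both named after their values were seen. Of the 15811 genes tested, 592, 512 and 607 had an unadjusted p under 0.05 in these populations. The list medians in moMs, tnsIMs and matIMs were 0.04, 0.13 and 0.06 for kinases and adaptors, -0.02, 0.00 and -0.02 for feedback regulators and 0.19, 0.20 and 0.12 for targets, against 0.00 for all genes in each population.

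Across the 18 libraries, the pair of members most alike was Nfkb1 and Relb, with a Pearson r of 0.90 of log2 CPM, followed by Nfkbia with Nfkbie at 0.76 and Nfkbiz with Tnfaip3 at 0.74. The least alike were Nfkb1 and Nfkbiz at -0.49. Among all tested genes, those closest to Relb were Tspan3, P2ry10 and Aebp2, with r of 0.98, 0.97 and 0.97, and those closest to Nfkb1 were Fcho1, Fyn and Bex6, with r of 0.95. Those closest to Nfkbia were Rilpl2, Sertad1 and Klf4, with r of 0.96, 0.91 and 0.90. Rela was closest to Gpcpd1 at 0.87, Nab1 at 0.86 and Tmc6 at 0.85, Rel to Dennd4a at 0.89 and to Cdk12 and Skil at 0.86, and Nfkb2 to Kcnh4, Acss2 and Itgb8 at 0.81, 0.80 and 0.79. Nfkbib was closest to Snrpc at 0.93, Gm10138 at 0.92 and 2410006H16Rik at 0.91, and Nfkbie to Srcap, Jdp2 and Crem at 0.82, 0.82 and 0.81. Nfkbiz was closest to Fam53c, Atrnl1 and Cpt1a at 0.93, 0.91 and 0.91, and Tnfaip3 to Ppp2r2a, Gm14636 and Tra2a at 0.93, 0.91 and 0.90. These r describe 18 libraries that fall into 3 populations and share replicate numbers, and no test was made of them.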

How the data were processed

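RNA of sorted lung cells was amplified with SMART-Seq v4 and sequenced as read pairs. The authors aligned the reads with STAR 2.7.9a to GRCm39 and deposited raw read counts per Gencode gene, without normalization. The strand column used was not given in the sources used here. All 18 columns were matched to samples by name. The values were fitted with edgeR 4.0.16 in R 4.3.3 (filterByExpr at a smallest count of 10, TMM, 1 quasi-likelihood model of 6 groups), with Benjamini-Hochberg adjustment over 15811 genes. CPM are TMM-scaled. Intervals of 95% used the fit's SE. Ratios were tested by exact permutation in Python 3.11.15. Fits were tested on simulated data. Alternatives were DESeq2 1.42.0, upper-quartile factors, library totals, 2 other filters, populations or genotypes alone, replicate blocks and each library left out. Replicates of a group differed by more than sampling noise. The labels call them biological replicates.

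The replicate numbers were checked from correlations of deviations from the group means. Between genotypes of 1 population, same-numbered libraries correlated at 0.102 to 0.316 (9 pairs), against at most 0.0508 for different numbers, so the numbers pair WT with Ezr-KOm libraries. The block changed no genotype call of a member.

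The genes and lists were chosen with earlier results of these data known. Named were all members, up to 3 genes of each pathway list in each direction by p among those called in each WT population comparison, up to 5 list genes by p that met the study's rule between genotypes (0 did), the 3 genes closest to each member, and Ezr. Of 13 marker lists, the remaining sums (monocyte, MHC class II, plasmacytoid dendritic cell, alveolar macrophage, neutrophil, B cell, T and NK cell, endothelial and fibroblast) stood in WT matIMs at 1051 to 1252, 40438 to 55841, 177 to 224, 159 to 226, 259 to 325, 147 to 219.8, 27.1 to 33.4, 68.7 to 96.5 and 8.38 to 14.8 CPM, against 3403 to 3692, 4523 to 6135, 155 to 170.2, 102 to 112, 779 to 876, 8.77 to 13.2, 26.0 to 36.1, 77.8 to 106 and 12.7 to 17.6 CPM in WT moMs.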

Additional observations from a re-analysis of the deposited data

How the results depend on the processing

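Relb and Nfkb1 kept their direction and their call in all 4 comparisons with matIMs under every one of the 26 alternatives, 18 of which leave out 1 library each. The count of members called for WT tnsIMs against moMs was 1 in the reported fit. It was 0 with library totals only, with no filter on low counts, with at least 10 counts in every library and with 1 genotype alone, and 2 with a replicate block within genotype. Leaving out 1 library gave 0 to 1. In Ezr-KOm mice the count was 0, against 1 with DESeq2 and 1 with a replicate block, and 0 to 1 with 1 library left out. Same-numbered libraries of different populations correlated at 0.0905 to 0.397 (18 pairs), against at most 0.0316 for different numbers. The numbers thus also went together across populations of 1 genotype. Neither the reported population tests nor the exact permutations of the ratios used this pairing, while the fits with a replicate block did. With a replicate block of 3 levels, Rel for WT matIMs against tnsIMs was 0.64 with an adjusted p of 0.0377, over a range of 0.0377 to 0.560 in all alternatives, and the call counts of WT matIMs against moMs and against tnsIMs became 4 and 3, and that of Ezr-KOm matIMs against moMs 3. With upper-quartile factors the 1 member called for WT tnsIMs against moMs was Relb at 0.41 and not Rela at -0.24. Scaling by library totals only moved the median of all genes by 0.13 for Ezr-KOm matIMs against moMs, and no other scaling moved one by over 0.1. Nfkbie for WT matIMs against moMs turned to 0.0298 with library totals only. In all, 68 of 130 comparisons of a member changed sign under at least 1 alternative, none with a reported log2 value beyond 0.31 in size. With 1 library left out, those that turned included Rel in matIMs against moMs (-0.13 to 0.45 in WT, -0.0871 to 0.49 in Ezr-KOm), Nfkbib in the same comparisons (-0.0871 to 0.27 and -0.10 to 0.21), Rel in Ezr-KOm tnsIMs against moMs (-0.38 to 0.14) and Rela between genotypes in moMs (-0.00432 to 0.16). Likewise, the log2 ratio difference of Nfkb2 to Nfkb1 for tnsIMs against moMs ran from -0.0683 to 0.00872, and that of Rel to Rela from -0.0846 to 0.17 for tnsIMs against moMs and from -0.0863 to 0.10 between genotypes. For matIMs against tnsIMs the latter ran from 0.30 to 0.55 and passed the test without Ezr-KOm matIM replicate 3. The cause of these changes was not tested.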
